A study of Mus musculus with 35 samples.

Results

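The cytosolic ribosomal protein genes encode the proteins that, together with ribosomal RNA, form the large (Rpl) and small (Rps) subunits of the ribosome that translates nuclear-encoded mRNA. They are among the most highly expressed genes of nearly every cell, and the finished ribosome holds their products in a fixed stoichiometry. Many of their transcripts begin with a cytosine followed by a run of pyrimidines, the 5′ terminal oligopyrimidine (TOP) motif, through which the mTORC1 kinase and the RNA-binding protein LARP1 tie their translation and stability to nutrient supply. Mature macrophages divide little, and in them ribosomal protein mRNA makes up a smaller share of the transcriptome than in lymphocytes or growing cells.

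Members were all genes whose symbol is Rpl or Rps followed by a number and at most 1 letter, together with Rplp0, Rplp1, Rplp2 and Rpsa. The rule used names only and no measured value. It found 80 of 32285 genes in the count tables of the lactate and technique experiments (49 of the large and 31 of the small subunit) and 83 of 35624 genes in the table of the AZD3965 experiment (51 and 32), which follows another gene list. The additional members of that list were Rps4l, Rpl6l and Rpl32l, all annotated as processed pseudogenes in GENCODE M21. Ribosome components with other names (such as Fau, Rack1 and Rps3a1) lay outside the rule and are given separately, and mitochondrial ribosomal proteins were not included.

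The 35 samples were single primary peritoneal macrophages of male C57BL/6 mice aged 6 months, with no genetic change named, sequenced as full-length SMART-seq2 libraries. In scMeT-seq, part of the cytoplasm was first drawn from the living cell for metabolite measurement and the rest of the same cell was then lysed for RNA, whereas whole cells went into SMART-seq2 directly. The lactate experiment held 8 scMeT-seq cells kept in 10 mM lactate and 8 control scMeT-seq cells. The AZD3965 experiment held 5 cells given 10 mM lactate with 300 nM AZD3965, an inhibitor of the lactate carrier MCT1, and 5 cells given lactate alone, and the technique experiment held 4 lactate-treated scMeT-seq cells, 3 lactate-treated whole cells and 2 control whole cells. Treatments lasted 72 h.

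The labels tie no cell to an animal or a culture, so each group counted as 1 sample and no test over cells was made. Ratios are given with exact 95% intervals that cover counting error only, and since the reads carried no molecular identifiers, even that error is understated. Total counts per cell ranged between 269393 and 459859 in the lactate experiment, between 58444 and 175450 in the AZD3965 experiment and between 494520 and 851417 in the technique experiment. Genes detected per cell ranged between 3392 and 10891 over the 35 cells. No cell name occurred in more than 1 table. The macrophage label was checked on 18 marker genes, whose summed level was between 31440 and 126719 CPM (counts scaled to 1 common total for every cell) in 34 cells, although Mrc1 had no count in the 8 lactate-treated scMeT-seq cells. The control cell CTL32 stood apart, with 1381 CPM of macrophage markers against 43130 CPM of 14 fibroblast markers such as Col1a1 and Sparc. In CTL30, Lactic29 and W14 the fibroblast markers reached 25.3%, 17.4% and 55.0% of the macrophage markers. The main group comparisons that rest on these 4 cells are given with and without them.

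Ribosomal protein genes took a small and similar share of the counts in all 7 groups, although the AZD3965 groups follow another gene list. The summed share was 1.82% (95% interval 1.81 to 1.84%) in the lactate-treated scMeT-seq cells and 2.03% (2.01 to 2.04%) in their controls. It was 1.95% (1.92 to 1.99%) with lactate plus AZD3965 and 1.87% (1.84 to 1.90%) with lactate alone. In the technique experiment it was 2.19% (2.17 to 2.20%) in lactate-treated scMeT-seq cells, 2.05% (2.03 to 2.07%) in lactate-treated whole cells and 1.85% (1.83 to 1.87%) in control whole cells. The 7 group values therefore lay within 1.82 to 2.19%, whereas single cells spread much more widely, between 1.25 and 3.68%. In the AZD3965 experiment, ribosomal protein pseudogenes held a further 0.22 to 0.38% of the counts of a cell, against at most 0.0045% in the others. Its shares are therefore not quite the same measure as those of the other experiments.

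The few whole cells of each treatment lay close together, whereas the cells of every other group spread more widely than the groups differed. The 8 lactate-treated scMeT-seq cells had a lowest share of 1.25% (Lactic28), a median of 1.80% and a highest of 3.68% (Lactic31), and the 8 controls had 1.26% (CTL28), 1.97% and 3.07% (CTL32). Lactic31 was alone above all other cells of its group, whose next value was 2.001%. With lactate plus AZD3965 the cells T10, F8, F9, W10 and W14 had 1.82, 2.32, 1.47, 2.10 and 2.08%, and with lactate alone T11, T13, F18, W5 and W20 had 1.58, 1.33, 1.98, 2.34 and 2.29%. The highest and the lowest of these 10 cells both belonged to the lactate group, so the values with AZD3965 lay wholly inside those without it. The 4 lactate-treated scMeT-seq cells of the technique experiment had 1.503, 2.79, 2.90 and 1.73%, the 3 lactate-treated whole cells had 1.88, 1.97 and 2.26%, and the 2 control whole cells had 1.83 and 1.87%. Whole cells were closer together than cells sampled for metabolites first, although the whole-cell groups hold only 3 and 2 cells.

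**Figure D1:**
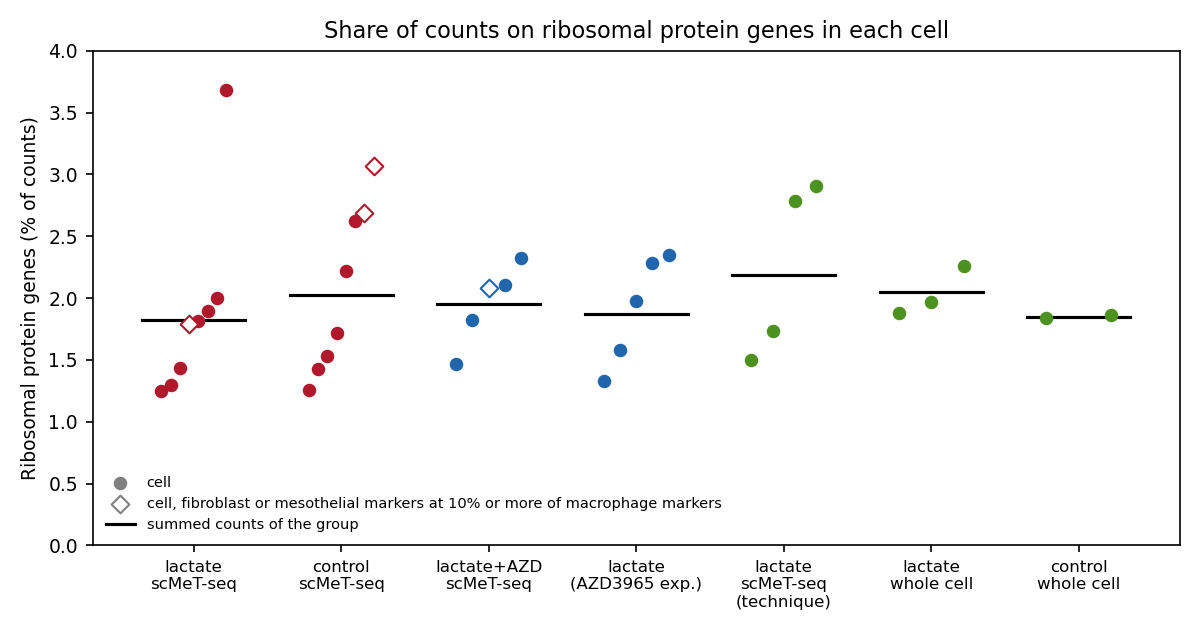
Percent of all counts on ribosomal protein genes in each of the 35 cells (points), by group, with the share of the summed counts of the group as a black line. Open diamonds are the 4 cells whose fibroblast markers reach 10% of their macrophage markers or more; Lactic31 at 3.68% is the highest cell and the group lines lie between 1.82 and 2.19%.

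Most members were found in every cell, and the subunits moved together. Between 72 and 75 of 80 members had at least 1 count in a cell of the lactate experiment, 74 or 75 of 80 in the technique experiment and between 66 and 77 of 83 in the shallower AZD3965 experiment. Large subunit genes took more counts than small subunit genes in every cell. The name rule also lists more of them, with 49 against 31 members, and 51 against 32 in the AZD3965 experiment. The ratios below are not per gene. The ratio of large to small was between 1.48 and 1.71 in the lactate experiment, between 1.49 and 1.75 in the technique experiment and between 1.30 and 1.83 in the AZD3965 experiment. Across cells, the large and small subunit shares correlated with Pearson r of 0.994 over 16 cells of the lactate experiment, 0.984 over 9 cells of the technique experiment and 0.811 over 10 cells of the AZD3965 experiment. The points of each correlation share a library and its total, and the values are a description only.

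The single genes reached very different levels. In control scMeT-seq cells the members with most counts per kb of exon were Rpl41, Rplp0, Rpl10, Rps28 and Rps18, with 881, 862, 823, 714 and 710 CPM per kb. Rpl41 (chr10:128548114-128549305, GRCm38, GENCODE M21) encodes the shortest ribosomal protein, Rplp0 (chr5:115559467-115563727) the core of the stalk that recruits elongation factors, Rpl10 (chrX:74270812-74273135) a late-joining protein near the peptidyl transferase centre, and Rps28 (chr17:33819027-33824562) and Rps18 (chr17:33951999-33956001) are small subunit proteins. In unscaled CPM, Rplp0 was the highest member of 5 of the 7 groups, all but those of the AZD3965 experiment with its other gene list. It alone took 5.77% of all ribosomal protein counts in control scMeT-seq cells. The 10 most counted members took between 28.5 and 31.8% of the ribosomal protein counts in every group. At the other end, Rpl23a had 7.89 CPM per kb, Rps20 61.6 and Rpl12 76.1 in the same control cells. The level of Rpl23a differed between the gene lists, and that of Rps20 is divided by an annotated exon length of 3706 bases.

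The order of the members was nearly the same wherever the same gene list was used. Spearman's rho between the levels of the 80 members was 0.951 between control scMeT-seq cells of the lactate experiment and control whole cells of the technique experiment, and 0.948 between the lactate-treated scMeT-seq cells of those experiments. Between lactate-treated cells of the lactate and the AZD3965 experiments it was 0.785. These are correlations across genes, which are not independent replicates, and the tables were made separately.

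Some members had counts under one gene list and next to none under the other. Of 77 members with at least 20 CPM in the lactate-treated cells of either experiment, 66 lay within 2-fold between the tables and 5 were at least 4-fold lower in the AZD3965 table. Rpl35 and Rpl35a, which every translating cell needs, were listed at 0 in all 16 cells of the lactate table, while the lactate cells of the AZD3965 table had 268 and 36.1 CPM of them. Rpl35 and Rpl35a were likewise listed at 0 in the technique table. Rpl23a had 81.9 CPM in the lactate cells of the AZD3965 table and 1.97 CPM in those of the lactate table. In the other direction, Rpl29 had 4.16 CPM in lactate cells of the AZD3965 table and 284 CPM in those of the lactate table, Rpl21 had 2.78 and 124 CPM, Rpl26 8.33 and 273 CPM, Rps2 20.8 and 255 CPM, and Rps18 26.4 and 286 CPM. These genes encode core proteins of the ribosome, and no cell of either table can be read as lacking them.

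**Figure D2:**
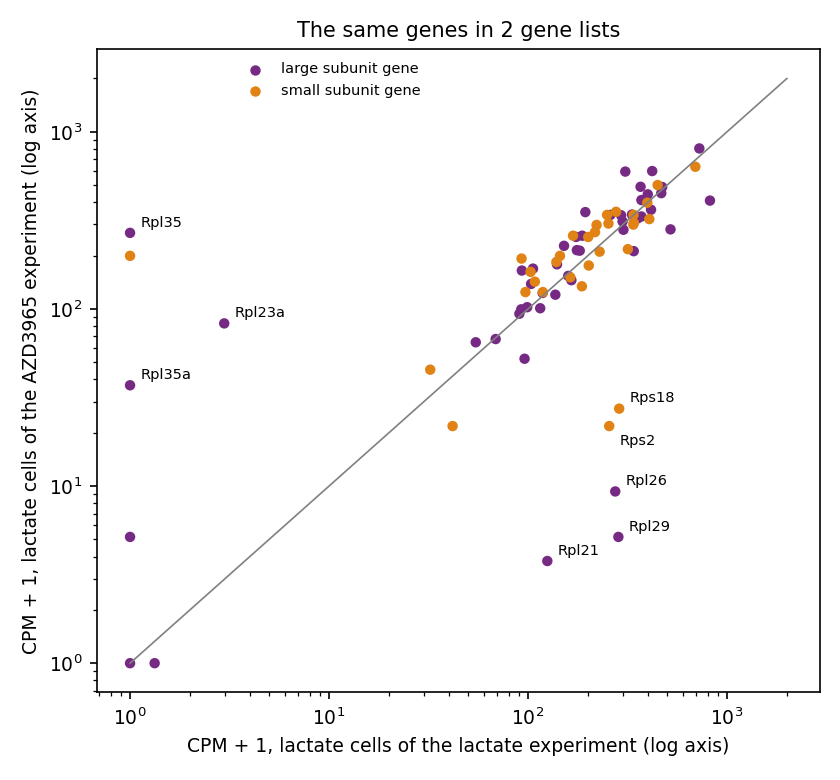
Level of each of the 80 shared members in the lactate-treated cells of the lactate experiment (x axis, CPM + 1) and of the AZD3965 experiment (y axis, CPM + 1), both on log axes, with the line of equality. Rpl29, Rpl21, Rpl26, Rps2 and Rps18 lie far below the line, and Rpl35, Rpl35a and Rpl23a far above it.

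Ribosomal protein genes have left many near-identical retrocopies in the mouse genome, and reads of a parent and a copy can be hard to tell apart. Of the 83 members, 15 shared no 150-base window of their transcript with any other annotated transcript, while 22 shared over 50% of their windows and the median was 26.3%. The AZD3965 list named 321 ribosomal protein pseudogenes (symbols ending in -ps and a number), of which 118 had counts, 3719 in all or 13.03% of the counts on members and pseudogenes together. The lists of the lactate and technique tables named 5 such pseudogenes, with 0.104 and 0.111% of those counts. In the AZD3965 table Rps2 had 29 counts and genes that share a window with it had 811, of which Rps2-ps10 had 425. Rpl26 had 10 counts and its window-sharing genes 419, Rpl29 had 3 and 375, Rpl21 had 2 and 315, and Rpl35a had 36 and 339. Rplp0 had 554 counts and its window-sharing genes 842. Reads were thus listed under sequence copies of those members in this table, and how many of them came from the parent genes was not tested.

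Whether the annotated transcript starts of the members carry a pyrimidine run was read from RefSeq promoters (GRCm38.p6). Of the 83 members, 61 had an entry, with 73 promoters. In a 30-base window, 10 bases before and 20 from the start site, a run of at least 8 cytosines or thymines was found in 32.9% of member promoters, against 11.2% of 32851 promoters of all genes. The letters CCGGAAG, which resemble an ETS factor site, were present on either strand in 35.6% of member promoters of 300 bases against 8.9% of all, GATGGCGG, which resembles a YY1 site, in 5.5 against 1.7%, and TATAAA in 9.6 against 13.6%. A match is a description of letters and not of binding. The windows below are those of members described here, first those with a long run and then those without, 5′ to 3′ on the strand of the gene, with the longest run in capitals.
Rps18 (chr17:33955646-33955675, minus strand): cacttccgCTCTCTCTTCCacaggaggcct
Rpl35 (chr2:39005112-39005141, minus strand): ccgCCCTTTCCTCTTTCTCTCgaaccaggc
Rps27 (chr3:90213629-90213658, minus strand): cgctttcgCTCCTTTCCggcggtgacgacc
Rps6 (chr4:86857348-86857377, minus strand): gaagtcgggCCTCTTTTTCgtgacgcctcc
Rpl12 (chr2:32961702-32961731, plus strand): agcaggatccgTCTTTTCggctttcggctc
Rplp0 (chr5:115559457-115559486, plus strand): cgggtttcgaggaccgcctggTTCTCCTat
Rpl27 (chr11:101442235-101442264, plus strand): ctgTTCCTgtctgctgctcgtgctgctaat
Rps4x (chrX:102189372-102189401, minus strand): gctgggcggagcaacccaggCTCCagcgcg
In Rps18, Rpl35, Rps27 and Rps6 the run crosses the annotated start, in Rpl12 and Rplp0 a run of 7 lies after it, and in Rps4x the longest run is 4 bases.

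Members were high or low together from cell to cell. Over the 16 cells of the lactate experiment, the median Spearman correlation between 73 members with enough counts was 0.54, against 0.02 between 4262 other genes that passed the same filter. It was 0.43 against 0.02 over 9 cells of the technique experiment and 0.25 against 0.01 over 10 cells of the AZD3965 experiment, which had fewer counts per gene. Of the pairs of members, 98.7% had a correlation above 0 in the lactate experiment, 87.0% in the technique experiment and 75.7% in the AZD3965 experiment. In the lactate experiment the members followed a common level in each cell. In CTL32 all 73 members were above their own median over the 16 cells, in Lactic31 and CTL30 68 of 73 were, and in Lactic28 and Lactic32 only 6 and 7 were. CTL32 and CTL30 carry fibroblast markers. The correlations between members were not repeated without the cells with markers of another type, so the part of cell type in them was not tested. Rpl23, Rpl13 and Rplp1 followed the other members most closely in the lactate experiment, with Spearman's rho to the summed rest of 0.96, 0.92 and 0.91. Rpl21, Rps25 and Rps27l followed it least, with 0.26, 0.28 and 0.29. In the other experiments some members ran against the rest, with a lowest rho of -0.53 in the technique experiment (Rps12) and of -0.50 in the AZD3965 experiment (Rps14). All these values come from shares of 1 total per library and describe cells of 1 series.

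**Figure D3:**
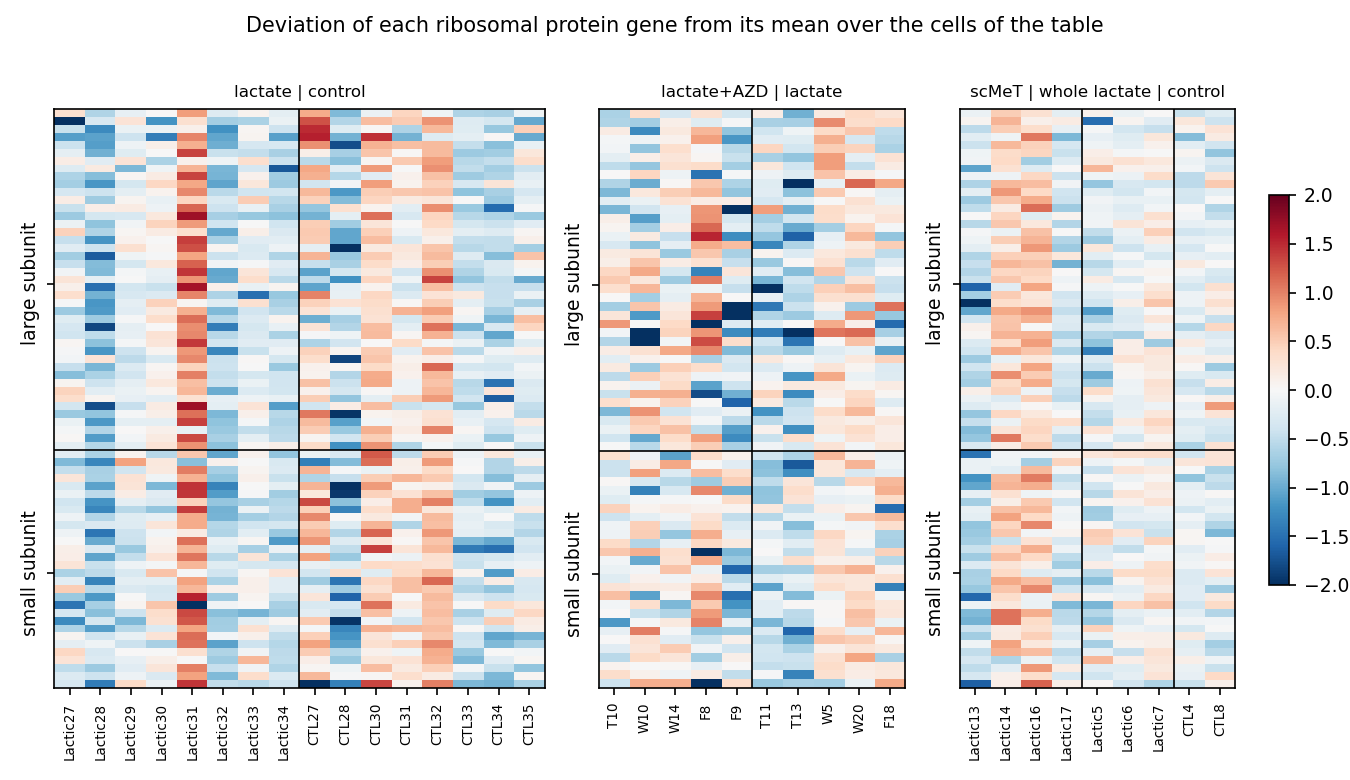
Each row is a ribosomal protein gene and each column a cell, in 3 blocks for the lactate, AZD3965 and technique experiments. Colour is the log2 of CPM + 10 over the mean of that gene in the block; Lactic31 and CTL32 are high, and Lactic28 and Lactic32 low, over nearly the whole column.

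The summed level of other translation machinery genes that carry the same 5′ motif went with the share in the lactate and technique experiments. The list of 19 other TOP genes (elongation factors such as Eef1a1 and Eef2, initiation factor subunits, Tpt1, Pabpc1 and others) had a summed level that correlated with the ribosomal protein share with Pearson r of 0.88 and Spearman's rho of 0.89 over 16 cells of the lactate experiment. Without the 3 cells that carry markers of another type, the values were 0.89 and 0.80 over 13 cells. They were 0.89 and 1.00 over 9 cells of the technique experiment and 0.32 and 0.41 over 10 cells of the AZD3965 experiment. Both measures are shares of the same library total. Single TOP genes followed the share less closely, with a median Spearman's rho of 0.29 over 19 genes in the lactate experiment. It was 0.38 over 18 genes in the technique experiment and 0.24 over 19 in the AZD3965 experiment. The members' median rho to the summed rest was 0.75, 0.62 and 0.53. Eef1a1 and Eef2 held 2014 and 1095 of the 5400 CPM of the list in lactate-treated scMeT-seq cells.

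The share was not a fixed function of the number of genes detected. Over 16 cells of the lactate experiment Pearson r between share and genes detected was -0.29 and Spearman's rho was 0.01. After each cell was thinned at random to 269393 counts, r was -0.27, and without the 2 cells farthest from the median in genes detected it was -0.17. Within groups the values parted, with r of -0.64 in the 8 lactate-treated cells and 0.04 in the 8 controls. The first rested on Lactic31, the cell with the fewest genes of its group (5010) and the highest share: without it and Lactic29, r was -0.27. The second rested on CTL27 and CTL33, the controls farthest from the median in genes detected, and without them r was 0.98 over the other controls. Those include CTL32 and CTL30, which carry fibroblast markers and had the most genes and the highest shares among them. A value without these cells as well was not computed. Among the controls the cell with the fewest genes, CTL27 (3392), had a share of 2.62%, while CTL32, with 9014 genes, had 3.07%. Without the cells that carry markers of another type, r over 13 cells was -0.58 and rho -0.23. In the other experiments r and rho were 0.20 and 0.13 over 10 cells with AZD3965 or lactate, and -0.46 and -0.33 over 9 cells of the technique experiment. Leaving out 1 cell moved r between -0.44 (without CTL32) and -0.06 (without Lactic31) in the lactate experiment, between 0.03 (without F9) and 0.35 (without F8) in the AZD3965 experiment, and between -0.72 (without Lactic13) and -0.15 (without Lactic16) in the technique experiment. Total counts, which differ between cells, also went with the share in the lactate experiment (r of -0.58).

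**Figure D4:**
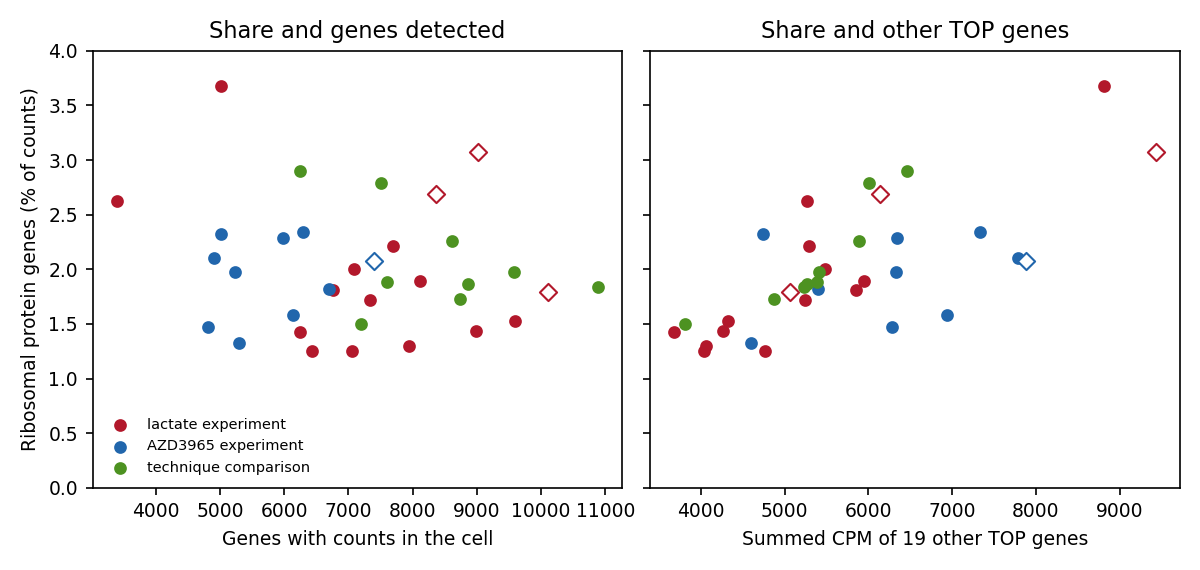
Ribosomal protein share of each cell (y axis, percent of counts) against genes detected (left) and against the summed CPM of 19 other TOP genes (right), with a colour for each of the 3 experiments and open diamonds for cells with markers of another type. The left cloud shows no single line, and the right one rises in the lactate and technique experiments.

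Lactate treatment was compared with control in scMeT-seq cells. The ribosomal protein share was lower in the lactate-treated cells by a log2 ratio of -0.15 (-0.17 to -0.14), a difference that depended on a few cells. Without CTL32, CTL30 and Lactic29, the cells with markers of another type, the share was 1.83% in lactate-treated and 1.73% in control cells, and the ratio became 0.08. It was -0.32 without Lactic31, -0.25 without CTL28, -0.05 without CTL32 and -0.08 without each of Lactic28, Lactic32 and CTL30. Of the 80 members, 74 had at least 10 counts over both groups, and of these 21 were above 0 and 53 below, with a median of -0.10 beside -0.09 over all 11506 genes that passed the filter. Without the 3 cells, 44 were above 0 and 30 below, with a median of 0.09 beside 0.01 over all genes. The direction of the members' median thus turned on cells in which fibroblast markers reached between 7517 and 43130 CPM. Mitochondrially encoded mRNAs also differed, with a sum of 10600 CPM in lactate-treated cells against 17021 CPM in controls, and their part in the share was not tested.

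No member reached a 2-fold higher level in lactate-treated cells, where 15.1% of all genes did. In this and the other comparisons, the percentages over all genes were not matched to the members for counts. Genes with few counts pass a fold more easily, so these percentages do not show that members are steadier than other genes of their level. Rpl23a was the only member at least 2-fold lower, where 22% of all genes were, with 6 counts over 8 lactate-treated cells and 13 over 8 controls, an interval that includes 0 (-2.84 to 0.33). For 5 members the whole interval lay above 0 (28.4% of all genes) and for 30 it lay below 0 (36.3%). Since all cells of a group entered as 1 sum, the intervals carry no cell-to-cell spread. Values of the lactate-treated and control cells overlapped for every member, as they did for all 11506 genes tested. The large subunit median was -0.08 over 44 members and the small subunit median -0.16 over 30.

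The lowest ratios in lactate-treated cells belonged to Rpl12, Rpl10a, Rps16, Rps27l and Rps2. Rpl12 (chr2:32961559-32965345), which joins Rplp0 at the base of the stalk, had a lowest, median and highest level of 23.7, 32.2 and 163 CPM in lactate-treated cells, against 33.8, 65.1 and 249 CPM in controls. The lactate-treated maximum is Lactic31 again, and the control levels rest on CTL27 (249 CPM) and CTL30 (233 CPM). Its log2 ratio was -0.82 (-1.11 to -0.53), between -1.16 and -0.45 when 1 cell was left out. Rpl10a (chr17:28328471-28331033), a protein of the L1 stalk that guides the leaving tRNA, had 5.602, 100 and 180 CPM in lactate-treated cells against 64.5, 161 and 356 CPM in controls, a ratio of -0.75 (-0.96 to -0.54). Rps16 (chr7:28350652-28353155), whose tail contacts the tRNA in the peptidyl site, had 56.1, 97.7 and 197 CPM against 55.8, 137 and 364 CPM, a ratio of -0.70 (-0.91 to -0.49). For both genes most lactate-treated cells lay below the control median, within overlapping ranges. Rps2 (chr17:24718116-24721929), a protein near the mRNA entry site, had 117, 270 and 381 CPM in lactate-treated cells and 220, 326 and 766 CPM in controls. Its ratio of -0.68 (-0.81 to -0.54) was -0.26 without the cells with markers of another type, while Rpl12, Rpl10a and Rps16 kept -0.49, -0.68 and -0.56.

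The highest ratios were small and leaned on Lactic31. Rpl27 (chr11:101442298-101445529), a large subunit protein, had 110, 146 and 381 CPM as its lowest, median and highest level in lactate-treated cells, against 22.2, 116 and 224 CPM in controls, a log2 ratio of 0.40 (0.21 to 0.60). Rps4x (chrX:102184941-102189394), the X-linked small subunit gene, had 459, 651 and 1419 CPM against 280, 553 and 944 CPM, a ratio of 0.29 (0.19 to 0.38). Rpl27 and Rps4x stayed above 0 whichever cell was left out (lowest 0.19 and 0.12), and were 0.69 and 0.60 without the cells with markers of another type. Rpl30, Rpl37a and Rpl7a had ratios of 0.32, 0.23 and 0.15, which without Lactic31 became -0.05, -0.03 and -0.26. These 3 large subunit genes are thus higher in the lactate sum only through that cell, in which they had 301, 875 and 394 CPM against at most 95.7, 382 and 142 CPM in the other lactate-treated cells.

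The stalk proteins did not move alike. Rplp0 had 600, 813 and 1088 CPM as its lowest, median and highest level in lactate-treated cells, against 600, 1089 and 2018 CPM in controls, a log2 ratio of -0.51 (-0.59 to -0.44). Its partners Rplp1 and Rplp2, which dimerise on it and carry the tail that activates elongation factors, had ratios of 0.01 (-0.16 to 0.19) and 0.02 (-0.18 to 0.22). Without the cells with markers of another type the ratio of Rplp0 was -0.26 and those of Rplp1 and Rplp2 were 0.17 and 0.35. Rplp0 thus stayed lower relative to its partners in both settings. The most abundant members per kb besides Rplp0 had ratios of -0.33 (Rpl41), 0.14 (Rpl10), -0.25 (Rps28) and -0.47 (Rps18).

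Rps27l is a paralogue of Rps27 that is induced by the tumour suppressor p53, and full-length reads can tell the pair apart. Their transcripts were 79.3% identical over 251 aligned bases, with no identical run longer than 11 bases, and none of the windows of Rps27l was shared. The same coding stretch of both, bases 36 to 125 of the coding sequence, is shown for this reason, with the 16 differing bases in capitals.
Rps27l (chromosome 9): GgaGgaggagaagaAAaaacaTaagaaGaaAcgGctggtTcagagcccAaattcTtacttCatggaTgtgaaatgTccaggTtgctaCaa
Rps27 (chromosome 3): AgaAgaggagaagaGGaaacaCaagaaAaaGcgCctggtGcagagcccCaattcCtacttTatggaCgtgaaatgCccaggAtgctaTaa
Rps27l (chr9:66946086-66949516) had a lowest, median and highest level of 0, 91.3 and 178 CPM in lactate-treated cells against 91.2, 136 and 260 CPM in controls, a log2 ratio of -0.68 (-0.90 to -0.46). The cell at 0 was Lactic31, in which nearly all other members were high, and without the cells with markers of another type the ratio was -0.47. Its parent Rps27 (chr3:90212522-90213651) had 110, 158 and 266 CPM against 91.1, 137 and 255 CPM, a ratio of 0.09 (-0.09 to 0.27). In the AZD3965 experiment Rps27l had 319, 411, 66.4, 93.5 and 212 CPM in T10, F8, F9, W10 and W14, against 188, 108, 199, 187 and 284 CPM in T11, T13, F18, W5 and W20. That is a ratio of 0.10 (-0.27 to 0.46), with the highest and the lowest cell both under AZD3965. Of the other named paralogues, Rpl6l had 44 counts and Rps4l 31 in the AZD3965 experiment, while the rest were close to absent. Rpl10l, a testis gene, was listed at 0 in every cell of all 3 tables, Rpl39l at 0 in the lactate table, and Rpl3l, a muscle gene, at 0 in the AZD3965 and technique tables. Rpl32l, annotated as a pseudogene, was at 0 in all cells of the AZD3965 table.

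Lactate plus AZD3965 was compared with lactate alone. The share was higher with AZD3965 by a log2 ratio of 0.06 (0.03 to 0.10), but became -0.07 without T13, 0.00 without T11 and 0.16 without W20, and -0.10 under TMM scaling (a trimmed mean over genes in place of the totals), which moved the median of all genes by -0.16. Of the 83 members 77 passed the count filter, and of these 44 were above 0 and 33 below, with a median of 0.05 beside 0.17 over all 8764 genes tested. Under TMM scaling 27 were above 0 and 50 below, and without W14, the cell with 17283 CPM of fibroblast markers, 38 and 39. Relative to genes at large the members were therefore slightly lower, and no direction held under every setting. Leaving out W14 kept the lactate cell W5, whose fibroblast genes summed to 6999 CPM. With 6.27% of its macrophage level, W5 lay under the 10% limit. The fibroblast list then had a median log2 ratio of -3.03, so this setting still held such transcripts in the lactate group. Median ratios were 0.04 over 45 large and 0.10 over 32 small subunit members.

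A single member, Rps4l, was at least 2-fold higher with AZD3965 (24.9% of all genes), and Rpl30 and Rpl35a were at least 2-fold lower (15.6%). Intervals lay above 0 for 11 members (28.4% of all genes) and below 0 for 6 (17.5%). The cells of the groups overlapped for every member, and of all 8764 genes tested only 28 lay wholly above and 5 wholly below. Rps4l (chr6:148354656-148355598), a transcribed processed pseudogene related to Rps4x, had 14, 3, 4, 0 and 7 counts in T10, F8, F9, W10 and W14, against 0, 1, 0, 2 and 0 counts in T11, T13, F18, W5 and W20. The ratio was 3.53 (1.84 to 5.89), and 4 of 5 cells with AZD3965 exceeded all cells without it, W10 being the exception. Rps4x itself was at 630, 411, 420, 1442 and 693 CPM in the same AZD3965 cells, against 584, 228, 1127, 899 and 629 CPM in the lactate cells. Their sequences were 81.4% identical with a longest identical run of 35 bases, and no window of Rps4l was shared.

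**Figure D5:**
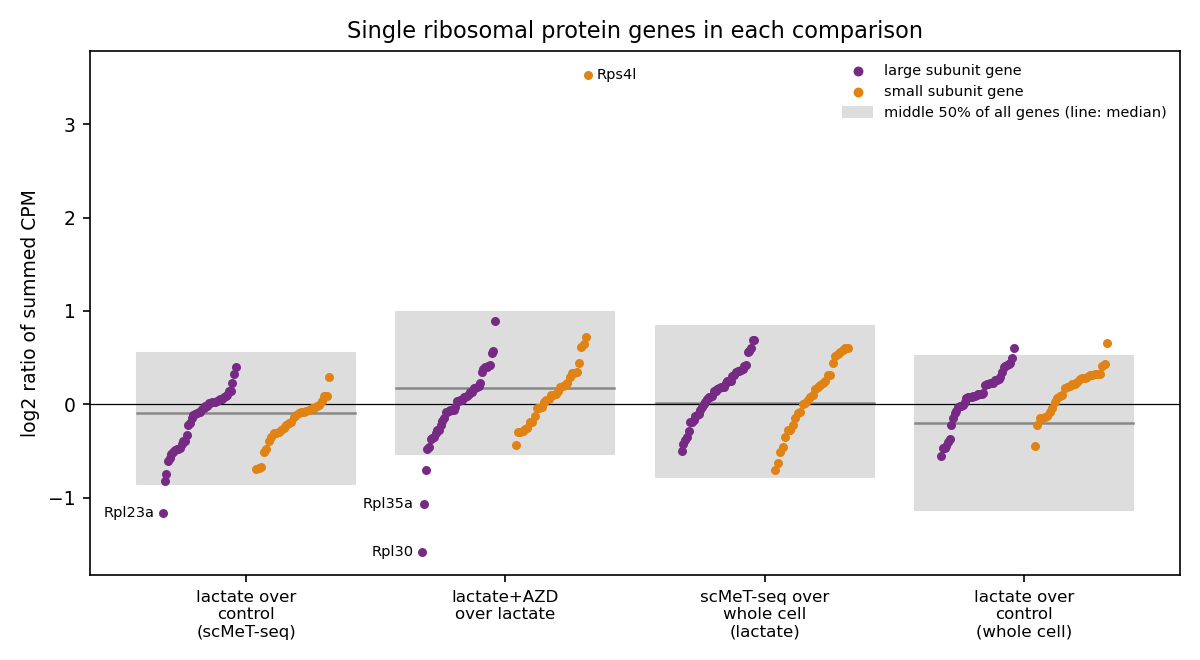
Log2 ratio of summed CPM of each ribosomal protein gene with at least 10 counts (points, coloured by subunit) in the 4 comparisons, with the middle 50% of all genes as a grey box and their median as a line. Members lie close around 0 and within a narrower range than genes at large, which were not matched to them for counts. Rps4l at 3.53 is the one far point.

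The named members at the upper end with AZD3965 were Rpl39, Rps13, Rpsa, Rpl32 and Rps27a. Rpl39 (chrX:37082520-37085402), a short protein that lines the exit tunnel of the nascent chain, had 191, 342, 88.5, 214 and 297 CPM in T10, F8, F9, W10 and W14, against 113, 96.9, 77.3, 142 and 154 CPM in T11, T13, F18, W5 and W20. Its ratio was 0.90 (0.49 to 1.31), at least 0.73 with any 1 cell left out, and 4 of 5 AZD3965 cells lay above every lactate cell, with F9 inside their range. No window of Rpl39 is shared with another gene. Rps13 (chr7:116331505-116334195), an early-binding small subunit protein, had 177, 376, 310, 434 and 198 CPM against 132, 96.9, 210, 285 and 191 CPM, a ratio of 0.73 (0.38 to 1.07). Rpsa, Rpl32 and Rps27a had ratios of 0.61 (0.29 to 0.93), 0.55 (0.26 to 0.84) and 0.44 (0.03 to 0.85). Rpsa is also known as a laminin receptor precursor and Rps27a is made as a fusion with ubiquitin. Rpsa rested on F9, W10 and W14 (332, 434 and 431 CPM), while F8 had 51.3 CPM and the lactate cell F18 had 442 CPM.

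At the lower end stood Rpl30, Rpl22, Rpl18, Rpl10a and Rps15. Rpl30 (chr15:34440505-34443640) had 10 counts in all with AZD3965 and 37 with lactate, of which W20 held most at 154 CPM, so its ratio of -1.58 (-2.75 to -0.54) became -0.32 at its highest when 1 cell was left out. Rpl22 (chr4:152325742-152334071), a protein that mice can lose with a defect mainly in T cells, had 70.8, 274, 0, 107 and 127 CPM in T10, F8, F9, W10 and W14, against 264, 68.4, 166, 187 and 167 CPM in T11, T13, F18, W5 and W20. Its ratio was -0.70 (-1.17 to -0.24). For Rpl22, 4 AZD3965 cells lay below 4 of the lactate cells, and F8 and T13 were the exceptions. Rpl18, Rpl10a and Rps15 had ratios of -0.48 (-0.87 to -0.11), -0.46 (-0.95 to 0.02) and -0.44 (-0.96 to 0.07). Rpl18 was at 0 in T13 and changed to 0.07 at its highest when 1 cell was left out. The stalk genes Rplp0, Rplp1 and Rplp2 had ratios of 0.13 (-0.11 to 0.38), -0.30 (-0.68 to 0.07) and -0.08 (-0.47 to 0.32), all with intervals that include 0.

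Taking cytoplasm before lysis was compared with lysing the whole cell, both after lactate. The share was higher in scMeT-seq cells by a log2 ratio of 0.09 (0.07 to 0.11), but -0.07 without Lactic16 and -0.02 without Lactic14, the cells at 2.90 and 2.79%, and 0.24 without Lactic13. Of 74 members, 50 were above 0 and 24 below, with a median of 0.15 beside 0.02 over 9723 genes. No member was 2-fold higher or lower, where 21.7 and 20.6% of all genes were, and intervals lay above 0 for 34 (32.7% of all genes) and below 0 for 15 (32.2%). The spread over members was narrow, between -0.70 and 0.69. Large subunit members had a median of 0.17 and small subunit members of 0.09.

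Few members separated the techniques cell by cell. Rpl10a was the 1 member whose scMeT-seq cells all exceeded the whole cells (1.7% of all genes), with 105, 167, 109 and 113 CPM against 28.3, 104 and 84.9 CPM and a ratio of 0.68 (0.38 to 0.99). Rps7 and Rps10 were the 2 members whose scMeT-seq cells all lay below (3.08%). Rps7 (chr12:28630854-28635953), a small subunit protein that can bind Mdm2, had 297, 246, 349 and 283 CPM in scMeT-seq cells, against 605, 415 and 448 CPM in whole cells, a ratio of -0.70 (-0.85 to -0.56). Rps10 (chr17:27630418-27636669), mutated in some human cases of Diamond-Blackfan anaemia, had 59.6, 173, 175 and 193 CPM against 218, 235 and 236 CPM, a ratio of -0.62 (-0.83 to -0.42). Both counts are close to the shares over all genes. Rps20, Rpl15 and Rps27l (-0.51, -0.50 and -0.45) and Rpl18, Rpl37a and Rpsa (0.69, 0.60 and 0.58) had overlapping cells. Rpsa was carried by Lactic16 (576 CPM), while Lactic13 had 73.7 CPM.

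Lactate was also compared with control in whole cells, with 3 and 2 cells. The share was higher after lactate by a log2 ratio of 0.15 (0.13 to 0.17), between 0.06 without Lactic7 and 0.20 without Lactic5, and all 3 lactate-treated whole cells (1.88, 1.97 and 2.26%) exceeded both controls (1.83 and 1.87%). Under TMM scaling, which moved the median of all genes by 0.19, it was 0.34. In scMeT-seq cells the same treatment gave -0.15, and 0.08 without the cells that carry markers of another type. Whether the effect differs between techniques was not tested. Of 74 members, 52 were above 0 and 22 below (65 and 9 under TMM scaling), with a median of 0.12 beside -0.20 over 9732 genes, 0.10 for the large and 0.20 for the small subunit.

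No member was 2-fold higher or lower in lactate-treated whole cells, where 15.2 and 27.6% of all genes were. Intervals lay above 0 for 27 members (24.7% of all genes) and below 0 for 7 (37.8%). In 10 members every lactate-treated whole cell exceeded both controls (5.99% of all genes), and in 3 every one lay below (15.4%). The 10 were Rpl6, Rpl10, Rpl13, Rpl14, Rpl15, Rpl23, Rplp0, Rps7, Rps14 and Rps16, and the 3 were Rpl11, Rpl28 and Rps12. Members of 1 cell move together, so these counts are not of independent genes. Rps14 (a small subunit protein whose human gene lies in the region lost in 5q- syndrome) had 340, 307 and 343 CPM against 187 and 242 CPM, a ratio of 0.66 (0.45 to 0.86). Rpl6 (chr5:121204481-121209241) had 704, 508 and 642 CPM against 426 and 369 CPM, a ratio of 0.60 (0.45 to 0.75), and Rplp0 had 1213, 924 and 1197 CPM against 861 and 767 CPM, a ratio of 0.43 (0.32 to 0.53). Rpl15, Rpl14 and Rpl9 followed with 0.49, 0.44 and 0.43. Rplp0 was thus higher after lactate in whole cells and lower in scMeT-seq cells, a pair of values from separate tables.

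At the lower end of the whole-cell comparison, Rpl11 (chr4:136028265-136053428), which binds Mdm2 when ribosome assembly fails, had 265, 206 and 192 CPM in lactate-treated cells, against 284 and 326 CPM in controls. Its ratio was -0.47 (-0.67 to -0.27). Rpl7a, Rpl18, Rpl37a and Rpl10a had ratios of -0.55, -0.47, -0.44 and -0.41 with overlapping cells. For Rpl7a and Rpl18 the difference lay in 1 control cell, CTL8, with 228 and 278 CPM, while CTL4 had 107 and 130 CPM. With 1 cell left out they reached -0.02 and 0.07.

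Ribosome components outside the name rule were listed apart. The list of 6 genes includes Fau (which yields a small subunit protein), Rack1, Rps3a1 and the paralogues Rpl22l1 and Rpl7l1. Their median log2 ratio was -0.01 over 5 genes for lactate over control, -0.02 over 6 for AZD3965, 0.58 over 5 for scMeT-seq over whole cells and -0.20 over 5 for lactate in whole cells. The members had medians of -0.10, 0.05, 0.15 and 0.12 in the same comparisons, so the components outside the rule lay higher than the members between techniques and lower for lactate in whole cells. Fau had 505 CPM in lactate-treated scMeT-seq cells against 404 CPM in controls, a ratio of 0.32 (0.21 to 0.43), and Rack1, a scaffold for signalling proteins on the small subunit, had 130 against 142 CPM, a ratio of -0.13 (-0.33 to 0.07).

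The 19 other TOP genes had medians of 0.03 (lactate), -0.04 (AZD3965), -0.20 (technique) and 0.00 (lactate in whole cells), beside -0.10, 0.05, 0.15 and 0.12 for the members. With all cells and totals as the scale, they therefore had the opposite sign to the members in 3 of the 4 comparisons. Without the cells with markers of another type, their medians were 0.11 (lactate) and -0.27 (AZD3965). The members' median then had the same sign in both, though close to 0 for AZD3965. Under TMM scaling the TOP median for AZD3965 was -0.21, also with the sign of the members. For lactate over control none was 2-fold higher or lower. Among them, Eef1d and Eif3e were lowest in lactate-treated cells (-0.91 and -0.90) and Eif2s3x and Pabpc1 highest (0.60 and 0.50). With AZD3965, Hnrnpa1 and Nap1l1 were 2-fold higher (1.47, 0.90 to 2.06, and 1.17, 0.68 to 1.67), and Eif3k and Npm1 were lowest (-0.70 and -0.64).

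Genes that build ribosomes parted from the genes that compose them. The 34 ribosome biogenesis genes (nucleolar proteins, RNA polymerase I subunits and assembly factors) had a median log2 ratio of -0.63 over 33 tested genes in lactate-treated scMeT-seq cells, with 3 at least 2-fold higher and 12 at least 2-fold lower. Among all genes 15.1 and 22% passed those folds, and the median of all genes was -0.09. The list median lay between -0.85 and -0.45 when 1 cell was left out, was -0.64 without the cells with markers of another type and -0.55 under TMM scaling. Nop56 and Nop58, core proteins of the box C/D particles that methylate ribosomal RNA, had 25.99 and 26.97 CPM in lactate-treated cells against 76.8 and 55.1 CPM in controls, with ratios of -1.56 (-1.95 to -1.19) and -1.03 (-1.43 to -0.64). Mybbp1a, a nucleolar protein, and Rrn3, a polymerase I initiation factor, had ratios of 0.81 (0.42 to 1.199) and 0.51 (0.19 to 0.84). Most genes of this list had few counts, and Nop56 was detected in 5 of 8 lactate-treated and 6 of 8 control cells. In the other comparisons the list median was 0.02 (AZD3965), 0.04 (technique) and 0.02 (lactate in whole cells).

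The 14 genes that control TOP mRNAs, among them the mTORC1 subunits, its inhibitors Tsc1 and Tsc2, the S6 kinases, the 4E-BPs, Larp1 and Myc, had medians of -0.13 (lactate), 1.45 (AZD3965), -0.33 (technique) and 0.26 (lactate in whole cells). With AZD3965, 8 of 14 were at least 2-fold higher, where 24.9% of all genes were, and none was 2-fold lower. Those 8 were the least counted, with between 2 (Mlst8) and 16 (Tsc1) counts over the lactate cells. The rest of the list had at least 22 counts there (Myc and Rps6kb1). Of these, Rps6kb1, Max, Rheb and Myc had ratios of 0.61, 0.18, 0.01 and -0.45, so the list median leans on genes with few counts. The list median lay between 0.81 and 1.53 when 1 cell was left out and was 1.36 without W14 and 1.28 under TMM scaling. Mtor, the kinase itself, had 40 counts in 4 of 5 AZD3965 cells and 12 in 2 of 5 lactate cells, a log2 ratio of 2.05 (1.09 to 3.11). Rptor, its substrate-binding partner, had 30 and 11 counts, a ratio of 1.76 (0.72 to 2.90). Both genes had no count in most lactate cells, and their counts are low. Eif4ebp1 had 72.3 CPM with AZD3965 against 114 CPM with lactate, a ratio of -0.65 (-1.23 to -0.10), and Akt1s1 a ratio of -0.32 (-0.95 to 0.29). The ribosomal protein genes that this pathway controls mainly at the level of translation had a median of 0.05 in the same cells.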

How the data were processed

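Members and gene lists were chosen with earlier results of these data known. The deposited counts are whole reads per gene and cell, and the deposited cell and gene names fall under no unit ("other"). Per the study's methods, the authors trimmed reads with fastp 0.20.0, aligned them to mm10 with HISAT2 2.1.0 and counted reads per gene with StringTie (version not given in the sources used here). Kits and counting are not described as stranded, and reads of members and of near-identical retrocopies may be split between them. The AZD3965 table uses another gene list than the other tables and was compared with them only side by side.

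Counts were divided by the total of each cell (CPM). Groups were compared as the log2 ratio of summed counts over summed totals, the treated or scMeT-seq group over its reference, for genes with at least 10 counts over both groups. Intervals were exact conditional binomial (95%), shares had Clopper-Pearson intervals, and a sum of 0 was set to 3 counts per group. The intervals were tested on simulated Poisson counts of the group sums. Such counts hold no spread between cells and no amplification error, so the test cannot show how well the intervals hold in these data. Correlations over cells used members and genes with at least 100 counts and detected in at least 80% of cells. Named genes were the 5 members with most counts per kb in control scMeT-seq cells, the 5 highest and 5 lowest ratios of each comparison among members that reached 50 CPM in the group where they were higher and had counts in 50% or more of its cells, members at 0 in a table, named paralogues, the stalk genes, and up to 2 genes at each end of a described list under the same minimum. Some genes that this rule names are not reported here. The other members named were chosen after their values were seen. Columns of no sample used numbered 0. Alternatives were the mean of cell CPM, edgeR TMM scaling of the group sums, other count filters, pseudogenes added, cells left out and a block on shared cell numbers. Transcripts, coordinates and shared 150-base windows came from GENCODE M21 and promoters from RefSeq. Python 3.11.15, numpy 2.4.6, pandas 2.3.3, scipy 1.17.1, matplotlib 3.10.9, Biopython 1.88, R 4.3.3 and edgeR 4.0.16 were used.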

Additional observations from a re-analysis of the deposited data

Results flagged for a closer look

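Of 91 pairs of a value and a group of 4 to 8 cells, 15 had 1 cell whose gap to the nearest other cell was large for the range of its group. Chance would give this in about 1 in 20 groups for values chosen beforehand. Genes such as Rpl7a, Rpl30 and Rpl37a were named for high ratios that Lactic31 itself raised, so the 15 cannot be set against that rate. The values of 1 cell also move together, so the 15 are not independent. Lactic31, a lactate-treated scMeT-seq cell, accounted for 9 of them. Its ribosomal protein share was 3.68% (next cell 2.001%), and it had 163 CPM of Rpl12, 381 CPM of Rpl27, 301 CPM of Rpl30, 875 CPM of Rpl37a, 394 CPM of Rpl7a, 478 CPM of Rplp1, 197 CPM of Rps16 and 1419 CPM of Rps4x, each the highest of its group. The control cell CTL28 had 72 members detected where the others had 74. Among lactate cells of the AZD3965 experiment, F18 had the lowest ratio of large to small subunit counts (1.34, next 1.60) and the highest Rpsa (442 CPM, next 234 CPM), and T13 had the lowest Rplp0 (171 CPM, next 440 CPM). Among lactate-treated scMeT-seq cells of the technique experiment, Lactic14 had the highest Rpl10a (167 CPM, next 113 CPM) and Lactic13 the lowest Rps10 (59.6 CPM, next 173 CPM).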

How the results depend on the processing

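For lactate over control, the share ratio (-0.15) was -0.12 with the mean of cell CPM, -0.074 under TMM scaling and 0.075 without cells with markers of another type, and -0.32 to -0.045 with 1 cell left out. With the replicate block over 7 shared cell numbers it was -0.17 (3 numbers above 0). Same-numbered cells share only a number (r of their deviations 0.14). The member median was -0.081, -0.022 and 0.087 under the first 3 settings and -0.34 to -0.035 with 1 cell left out. Members 2-fold lower numbered 0 with a filter of 100 counts, 2 without a filter and 0 to 2 with 1 cell left out, and members 2-fold higher stayed at 0.

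For AZD3965 over lactate alone, TMM scaling gave -0.10 for the share and -0.11 for the median, and 1 cell left out gave -0.066 to 0.16 and -0.074 to 0.17. The median was -0.0050 without W14 and 0.11 with pseudogenes added. Members 2-fold higher and lower numbered 0 and 0 with a filter of 100 counts, 1 and 1 without W14, 5 higher with pseudogenes added, and 1 to 2 and 0 to 2 with 1 cell left out.

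For scMeT-seq over whole cells, the mean of cell CPM gave 0.13 for the share and 0.20 for the median, and 1 cell left out gave -0.073 to 0.24 (-0.019 without Lactic14) and -0.081 to 0.30. Without a filter 1 member was 2-fold higher, and with 1 cell left out 0 to 1 were higher and 0 lower. For lactate over control in whole cells, TMM scaling gave 0.34 and 0.30, pseudogenes added a median of 0.14 with 1 member higher, and 1 cell left out gave 0.065 to 0.20 and 0.014 to 0.21. Without a filter 1 member was 2-fold higher and 1 lower, and with 1 cell left out 0 to 1 and 0 to 2. The correlation of share and genes detected lay between -0.44 and -0.061, 0.027 and 0.35, and -0.72 and -0.15 with 1 cell left out, an alternative chosen after seeing the data. TMM scaling moved the share of 2-fold calls that were higher by less than 10 percentage points in all 4 comparisons. Over all alternatives, 165 values stayed within the limits set, 101 moved, medians that turned their sign included, and 5 share ratios turned their sign. The depth limits members with few counts, such as Rpl30 and Rps4l in the AZD3965 table.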
